A study of Rattus norvegicus with 4 samples.

Results

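Glutathione and antioxidant enzymes were followed in cultured rat Sertoli cells, with and without cAMP, as a set of 52 genes out of 14217 that carry a single gene symbol on the array. The rule selects them by symbol and uses no measured value, but the set was proposed with earlier results of these data known. The set holds the glutathione transferases (Gsta, Gstm, Gstp, Gstt, Gsto, Gstk1, Gstz1 and Mgst genes), the glutathione peroxidases (Gpx), the peroxiredoxins (Prdx), the thioredoxins and their reductases, the superoxide dismutases Sod1 to Sod3, catalase (Cat) and the enzymes that make and reduce glutathione. Nqo1, Srxn1, Nfe2l2 and Keap1 complete it. These genes had 59 probe sets, and a gene with several was represented by its brightest probe set, by the mean over all 4 arrays. The Sertoli cells, which line the seminiferous tubule and support germ cells, came from testes of male Sprague-Dawley rats aged 20 days. They were plated without serum and held at 32 °C for 72 h, in 2 control cultures with no treatment and 2 cultures with cAMP, the second messenger of follicle-stimulating hormone. The labels state neither which form of cAMP was used nor its dose. They call the samples of a group biological replicates but do not trace them to separate animals or preparations, and the spread behind each p-value may therefore be technical in part. RNA was measured on 1 single-colour Affymetrix array per sample, and the number of arrays limits the precision.

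These enzymes remove reactive oxygen species and the products they leave behind. Superoxide dismutases turn superoxide into hydrogen peroxide. Catalase, glutathione peroxidases and peroxiredoxins then break hydrogen peroxide down, the peroxidases with electrons from glutathione and most peroxiredoxins with electrons from thioredoxin. Glutathione transferases attach glutathione to reactive lipids and foreign compounds. The transcription factor NRF2 (Nfe2l2), held back by its sensor KEAP1, drives many of these genes through antioxidant response elements in their promoters. In the testis the system protects germ cells, whose membranes are rich in oxidisable lipids, and Sertoli cells are known for a high content of glutathione transferases.

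Signals are deposited probe set intensities on a linear scale. A log2 difference is cAMP minus control on log2(signal + 16) and is given ± its standard error, from limma over 18625 tested probe sets. Rose, fell, higher and lower refer to an adjusted p below 0.05. The array medians lay between 31.3 and 33.7. Actin probe sets at the 3' end were 1.65 to 1.86 times as bright as those at the 5' end on 3 arrays and 2.25 times on control replicate 2. For GAPDH this ratio ran from 0.90 on control replicate 2 to 0.97 on control replicate 1. Of 15 Sertoli markers 12 had a probe set, with a summed signal of 18709 and 19692.5 on the control arrays and 21101.2 and 20861.1 with cAMP. The rise of this sum was that of Inha, without which the other 11 summed to 17757.4 and 18449.7 against 16756.6 and 16128.5. Of the 12, 11 were tested, and single markers moved both ways. By log2 difference Inha (2.04), Dhh (0.74) and Shbg (0.69) rose, and Gata4 (-0.94) and Aard (-0.51) fell. Markers of other cells also gave signal. Peritubular myoid markers, 7 of 7 measured, summed to 614 and 460.8 on the control arrays and to 181.7 and 221.1 with cAMP. Most of that gap was Tagln, at 344.5 and 264.3 against 1.3 and 7.4, and the other 6 summed to 269.5 and 196.5 against 180.4 and 213.7. Of these 6, Synpo2 fell and Des rose. Synpo2 read 64.1 and 32.5 on the control arrays against 8.8 and 16.4 with cAMP. It passed the filter on dim probe sets only through its control arrays, so its call gives no support. Endothelial markers, 5 of 6 measured, summed to 259.1 and 183.2 against 108.2 and 115.5, a gap carried by Kdr, at 187.3 and 130.8 against 57.5 and 58.1. Without Kdr the sums overlapped, at 71.8 and 52.4 against 50.7 and 57.4. Germ cell markers, 8 of 12 measured, summed to 3975.2 and 3636.5 against 3744.9 and 2761.6. Most of that was Sycp3, at 2339.6 and 2298 against 2257.7 and 1753.6. Ldhc lay between 427.4 and 811.6 and Tex101 between 459 and 706.1, with Acrv1, Prm1 and Tnp1 at background on every array. Leydig markers, 6 of 6 measured, summed to between 73.5 and 95 over the arrays, with Lhcgr, Hsd3b1 and Cyp17a1 at background. Macrophage markers, 9 of 9 measured, summed to 214.3 and 348.2 on the control arrays and to 214.6 and 216.2 with cAMP, and 5 of them lay at background throughout. Erythroid markers, 3 of 6 measured, summed to 69.1 and 50.6 against 1185.2 and 890.3, nearly all of it Alas2. The part of these cells in the results below was not tested, and in whole cultures fewer cells of a type and less RNA per cell cannot be told apart.

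Of the 46 members tested, cAMP cultures had 9 higher and 5 lower than controls, and 32 were not past the threshold. The 9 were Sod3, Gpx2, Sod2, Mgst2, Prdx3, Gpx4, Gpx1, Prdx2 and Prdx5, in order of their log2 difference. The 5 were Mgst3, Gstt3, Cat, Gpx8 and Txn1. Among all 10035 genes tested 15.4% were called, 8.27% higher and 7.14% lower, against 30.4%, 19.6% and 10.9% of the tested members. Log2 differences of the tested members ran from -2.09 for Mgst3 to 2.02 for Sod3 with a median of -0.10, beside a median of -0.03 over all genes tested. Their median absolute log2 difference was 0.40, against 0.26 over all genes tested. A difference of at least 1 was reached by 8 members, 6 of them above 0 and 1 of these, Gpx3, not past the threshold. It was reached by 8.08% of all genes tested. The cAMP arrays lay beyond both control arrays for 36 of the 46, or 78.3%, where 61.3% of all genes tested did so. They lay above the controls for 17 members and below them for 19, beside 28.8% and 32.6% of all genes tested. The other 6 members lay below the filter on dim probe sets, and Gpx3 passed it only through its cAMP arrays, so the counts do not cover every member.

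**Figure D1:**
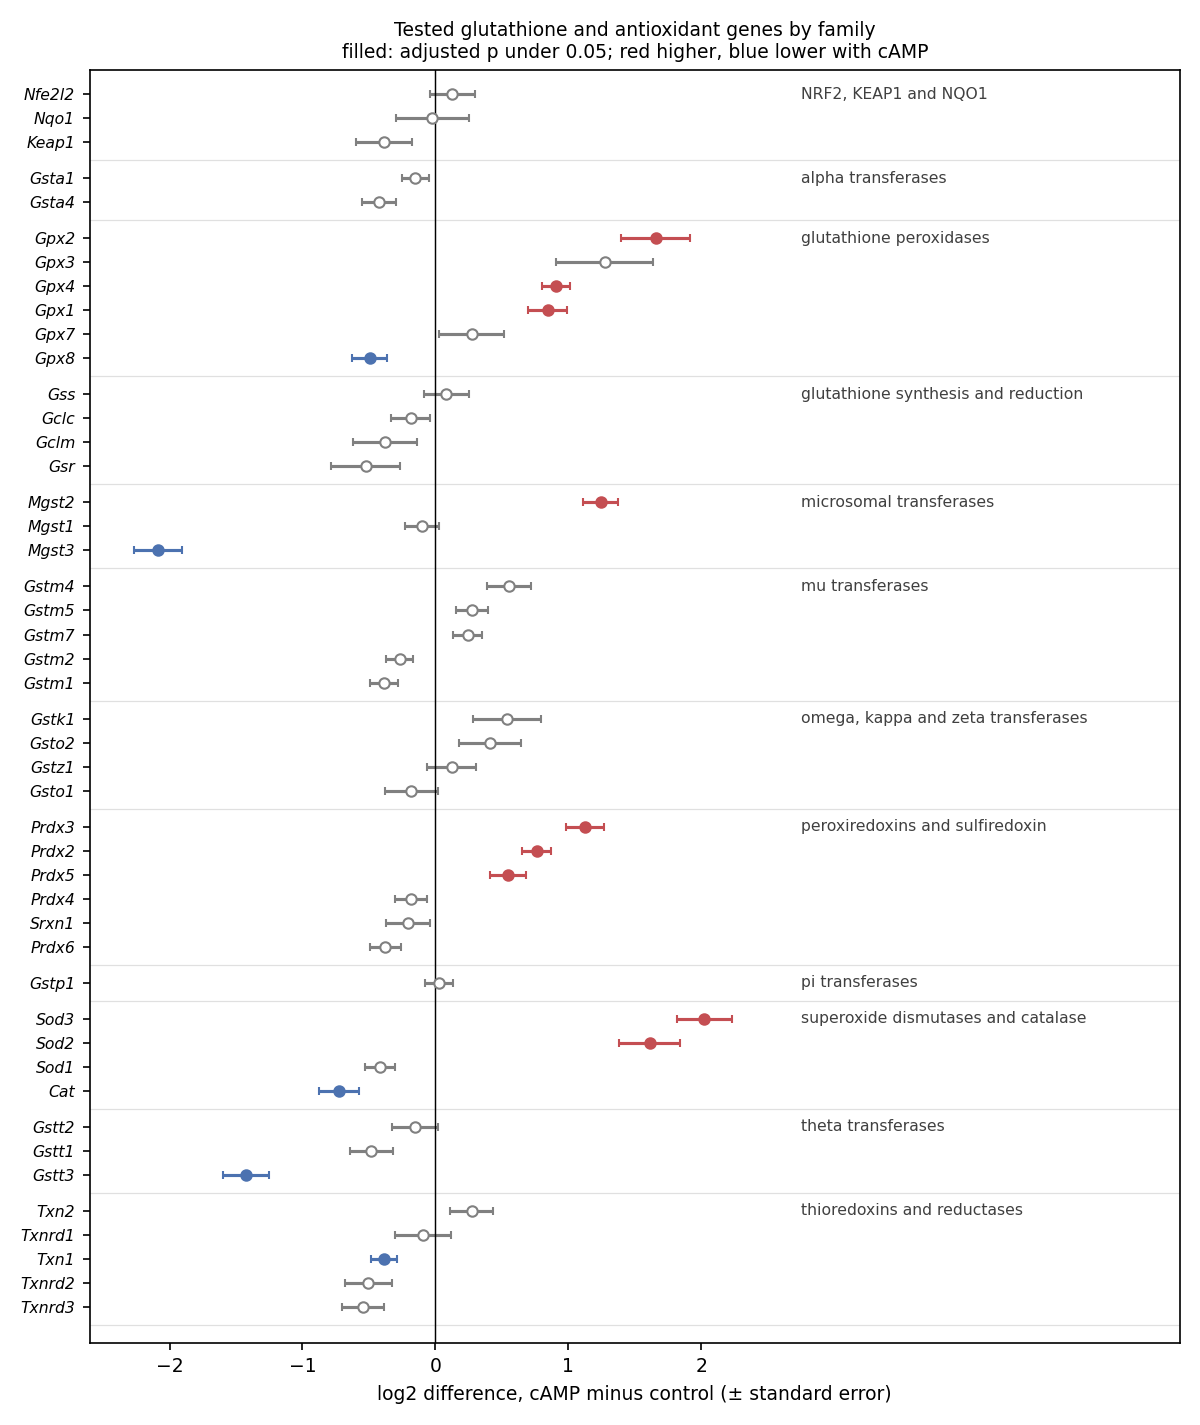
Log2 difference (cAMP minus control, x axis) of the 46 tested members by family, with bars of 1 standard error from limma on 2 arrays per group. Filled red points were higher and filled blue points lower with cAMP, and open points did not pass; Sod3 at 2.02 and Mgst3 at -2.09 mark the ends.

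Each array was left out in turn, which leaves 1 array in a group and takes the spread from the 2 arrays of the other. A call lost or gained therefore does not show that it rested on the array removed. Gpx4, lost below without either cAMP array, kept a log2 difference of 0.87 to 0.93 over 12 alternative settings. Sod2, Sod3, Mgst2, Mgst3 and Gstt3 passed whichever 1 of the 4 arrays was left out, with a highest adjusted p by limma of 0.0495, for Sod2. These 5 alone remained without cAMP replicate 1. Without cAMP replicate 2, 7 remained, with Gpx1 and Prdx3 added. Gpx2, Gpx4, Prdx2, Prdx5, Cat, Gpx8 and Txn1 were thus lost without either cAMP array. Without control replicate 1 all 14 passed and 6 more did, which gave 9 lower members in place of 5. Without control replicate 2 Gpx8 was lost and 8 others passed, which gave 11 lower members. Over all tested probe sets 13.7% were called with 4 arrays, 3.81% without cAMP replicate 1 and 4.11% without cAMP replicate 2. With control replicate 1 left out 26% were called, and with control replicate 2 left out 14%.

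The promoters of several of these genes are shown to place the results beside the sequence that regulators could read. The table of RefSeq promoters on build GRCr8 held 44 of the 52 members and 11 of the 14 that changed, and the 250 bases before each start were searched on both strands. The motifs were the core of the antioxidant response element, TGACNNNGC, the full cAMP response element, TGACGTCA, and the shorter core TGACG, which the full cAMP element contains. TGACG overlaps the antioxidant core wherever the base after TGAC is G, as happened once among the members, in Gstz1. No promoter was available for Sod3, Mgst2 and Gpx8, so these were not searched. Gpx2 and Sod2 are printed because they were the 2 members, of those searched, that rose and held TGACNNNGC. Prdx5 and Gpx4 are printed because they rose and held TGACG, and Mgst3 and Gstt3 because they fell most and held neither. Capitals mark TGACNNNGC or TGACG on either strand.
Gpx2, chr6:101230034-101230283, minus strand: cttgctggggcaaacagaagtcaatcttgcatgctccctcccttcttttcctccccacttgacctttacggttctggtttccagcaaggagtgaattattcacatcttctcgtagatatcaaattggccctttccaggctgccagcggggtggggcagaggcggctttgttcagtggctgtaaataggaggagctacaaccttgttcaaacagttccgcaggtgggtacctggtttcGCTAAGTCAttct
Sod2, chr1:50050169-50050418, minus strand: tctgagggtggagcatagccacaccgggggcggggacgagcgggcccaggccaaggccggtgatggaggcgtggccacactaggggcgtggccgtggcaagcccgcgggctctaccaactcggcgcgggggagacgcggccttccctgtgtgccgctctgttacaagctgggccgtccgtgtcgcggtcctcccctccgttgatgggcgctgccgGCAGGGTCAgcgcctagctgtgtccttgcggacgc
Prdx5, chr1:213532028-213532277, minus strand: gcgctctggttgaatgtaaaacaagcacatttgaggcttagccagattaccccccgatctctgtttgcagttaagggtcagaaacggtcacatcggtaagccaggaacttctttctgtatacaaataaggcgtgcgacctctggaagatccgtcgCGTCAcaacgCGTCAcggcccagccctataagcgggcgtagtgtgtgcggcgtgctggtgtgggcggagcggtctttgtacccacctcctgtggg
Gpx4, chr7:10303538-10303787, minus strand: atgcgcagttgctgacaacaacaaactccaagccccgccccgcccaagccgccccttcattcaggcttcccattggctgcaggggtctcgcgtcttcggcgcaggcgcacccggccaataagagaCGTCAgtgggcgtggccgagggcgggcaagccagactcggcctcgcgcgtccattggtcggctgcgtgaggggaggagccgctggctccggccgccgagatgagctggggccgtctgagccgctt
Mgst3, chr13:82080296-82080545, minus strand: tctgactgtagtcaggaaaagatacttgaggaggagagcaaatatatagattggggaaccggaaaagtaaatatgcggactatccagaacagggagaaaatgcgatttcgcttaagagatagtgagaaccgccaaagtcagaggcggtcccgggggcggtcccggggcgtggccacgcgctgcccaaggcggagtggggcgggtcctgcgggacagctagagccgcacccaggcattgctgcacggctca
Gstt3, chr20:12874368-12874617, plus strand: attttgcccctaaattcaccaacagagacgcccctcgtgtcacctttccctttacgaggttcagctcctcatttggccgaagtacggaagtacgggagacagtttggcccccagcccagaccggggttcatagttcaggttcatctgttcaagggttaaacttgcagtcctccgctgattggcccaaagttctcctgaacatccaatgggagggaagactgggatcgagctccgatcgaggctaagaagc

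In Gpx2 the match, printed as GCTAAGTCA, read TGACNNNGC on the opposite strand and lay from base -13 to -5 before the start. In Sod2 it was printed as GCAGGGTCA, again on the opposite strand, from -35 to -27. Prdx5 held 2 copies of TGACG, at -95 to -91 and -85 to -81. Gpx4, which has 3 annotated starts, held 2 distinct copies over its windows, and the printed window shows 1 of them. TGACNNNGC occurred in 18.6% of the 43 windows of tested members, in 12.5% of 9480 windows of all tested genes and in 10.1% of all 33469 windows. It was also present in members that did not pass, among them Gclm (GCTTAGTCA), Gstp1 (TGACTCAGC) and Txnrd1 (GCTTTGTCA). TGACG occurred in 20.9% of the windows of tested members and in 28.7% of those of all tested genes. None of the 43 windows held the full TGACGTCA, which was found in 3% of the windows of all tested genes. The GC box GGGCGG was in 72.1% of the members' windows and in 58.9% of those of all tested genes. A match describes the letters only, and no match says only that the letters are not in this window.

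Of the superoxide dismutases, those of the extracellular space and of the mitochondrion rose. Sod3, the copper-zinc enzyme secreted onto the cell surface and matrix (probe set 1368322_at), gave signals of 808 and 512.1 on control replicates 1 and 2 and of 2766.9 and 2567.7 with cAMP. Both cAMP arrays stood far above both controls, and the difference of 2.02 ± 0.21 (adjusted p by limma = 0.00107) was about 4.06-fold on this scale. Sod2, the manganese enzyme of the mitochondrial matrix (1370172_at, promoter above), went from 587.5 and 378.4 to 1272.3 and 1708.3. Its groups did not overlap either, although control replicate 1 stood 0.61 above control replicate 2 on the log2 scale (1.61 ± 0.23, adjusted p by limma = 0.00448). Sod1, the copper-zinc enzyme of the cytosol (1367641_at), gave 4307.5 and 4934.2 on the control arrays and 3524.8 and 3387.2 with cAMP. The cAMP arrays lay below both controls, but the difference of -0.41 ± 0.11 did not pass (adjusted p by limma = 0.0543). It did pass without control replicate 1 (0.00470), with quantile normalization (0.0316) and with a stricter filter on dim probe sets (0.0445). Catalase, the hydrogen peroxide enzyme of peroxisomes (Cat, 1367995_at), fell from 840.5 and 691.3 to 440.7 and 470.3, a difference of -0.72 ± 0.15 (adjusted p by limma = 0.0198). It was lost without cAMP replicate 1 (0.205) and without cAMP replicate 2 (0.143).

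**Figure D2:**
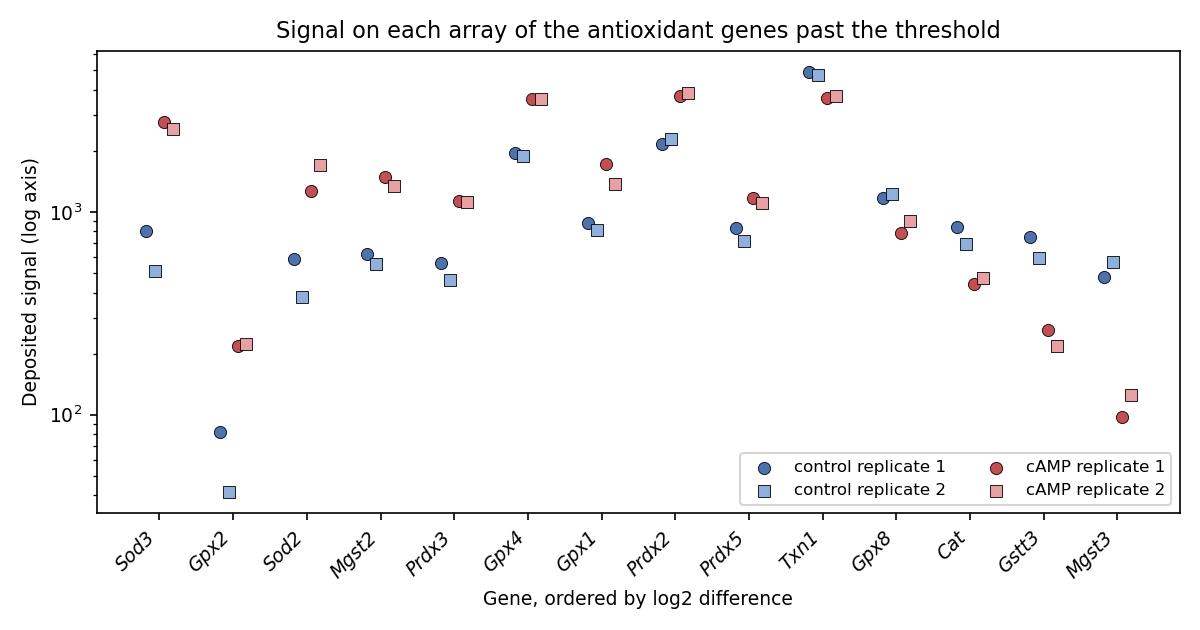
Deposited signal (log axis) of the 14 members past the threshold on each of the 4 arrays, ordered by log2 difference; circles are replicate 1 and squares replicate 2, blue control and red cAMP. The control and cAMP points separate for every gene shown, by the widest margin for Sod3, from 808 or less to 2567.7 or more, and for Mgst3, from 477 or more to 124.4 or less.

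Glutathione peroxidases rose in 3 of 6 tested members and fell in 1, where 8.27% of all genes tested rose and 7.14% fell. The 3 are selenoproteins, with selenocysteine at the active site. Gpx4, which reduces lipid hydroperoxides within membranes (1386871_at, promoter above), gave 1942.7 and 1890.5 on the control arrays and 3596.9 and 3612.1 with cAMP. Replicates of Gpx4 nearly coincided, and the difference was 0.91 ± 0.11 (adjusted p by limma = 0.00193). A further, much dimmer probe set of Gpx4 read 11.1 and 18.2 against 30.2 and 47.4 and did not pass (0.83 ± 0.25, adjusted p by limma = 0.0728). Gpx1, the widespread enzyme of cytosol and mitochondria (1367576_at), went from 883.1 and 817.4 to 1724.5 and 1371.7 (0.84 ± 0.15, adjusted p by limma = 0.0103). It was lost without cAMP replicate 1, the higher of its cAMP arrays (0.68, adjusted p by limma = 0.159). Gpx2, best known from the lining of the gut (1374070_at, promoter above), went from 82 and 41.4 to 218.7 and 222.2. The control arrays of Gpx2 differed from each other by 0.77 on the log2 scale, yet both lay well under the cAMP arrays (1.66 ± 0.26, adjusted p by limma = 0.00684).

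The remaining peroxidases followed no single direction. Gpx8, an endoplasmic reticulum member without selenocysteine (1372282_at), fell from 1171 and 1222.1 to 789.8 and 904.2, a difference of -0.49 ± 0.13. Its adjusted p by limma was 0.0474, the highest among the members called, and it passed in 4 of 12 alternative settings. Gpx7, its close relative of the same compartment, was dim at 25 and 19.3 against 38.3 and 22.9 and did not pass (0.27 ± 0.24). Gpx3, the peroxidase secreted into plasma, read 1 and 13.6 in the control cultures, both within background, and 56.3 and 24.7 with cAMP. Background is taken as 14.2, the brightest of 27 control probe sets for Bacillus transcripts on these arrays. The geometric mean of the 2 cAMP arrays of Gpx3 was 2.63 times that level, an estimate and not a lower bound. The difference of Gpx3 between the groups did not pass (1.27 ± 0.37, adjusted p by limma = 0.0624). Gpx3 entered the test only through its cAMP arrays, so no support is drawn from its p-values, with all arrays or with 1 left out.

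Peroxiredoxins rose in 3 of 5 tested members, beside 8.27% of all genes tested. Prdx3, the peroxiredoxin of the mitochondrial matrix (1367591_at), went from 557.5 and 461.3 to 1130.8 and 1116.4, a difference of 1.12 ± 0.14 (adjusted p by limma = 0.00271). The call was lost by a narrow margin without cAMP replicate 1 (adjusted p by limma = 0.0505). Prdx2, an abundant cytosolic form (1367578_at), went from 2162 and 2288.2 to 3719 and 3843.6 (0.76 ± 0.11, adjusted p by limma = 0.00426). Replicates of Prdx2 were close and the groups far apart. Prdx5, found in mitochondria, peroxisomes and cytosol (1367677_at, promoter above), rose from 837.1 and 720.7 to 1177 and 1104.5, by 0.54 ± 0.13 (adjusted p by limma = 0.0383). The endoplasmic reticulum form Prdx4 did not pass, with 1246 and 1265.2 against 1153.9 and 1059 (-0.18 ± 0.12). Nor did Prdx6, which uses glutathione rather than thioredoxin, with 2915.5 and 2611 against 2190.6 and 2057.2 (-0.38 ± 0.12, adjusted p by limma = 0.0791). Prdx6 was lower with quantile normalization (adjusted p by limma = 0.0285) and without control replicate 2 (0.0197). Srxn1, the sulfiredoxin that repairs over-oxidised peroxiredoxins, read 559.7 and 423.2 against 420.8 and 419.4 and did not pass (-0.21 ± 0.17).

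The thioredoxin system, which feeds most peroxiredoxins, showed no rise. Txn1, the cytosolic thioredoxin (1398839_at), fell from 4908.8 and 4753.1 to 3661.4 and 3718.6. Its groups were well apart for their spread, but the difference was small, at -0.39 ± 0.10 (adjusted p by limma = 0.0458), and it passed in 6 of 12 alternative settings. Its mitochondrial counterpart Txn2 gave 355.5 and 344.9 against 479.5 and 379 and did not pass (0.27 ± 0.16). The reductases return oxidised thioredoxin to its active form with NADPH. Txnrd2, the mitochondrial reductase, gave 112.8 and 106.5 against 72.9 and 72.2 (-0.50 ± 0.18, adjusted p by limma = 0.108). Txnrd3, the reductase known from testis, gave 248.4 and 221.4 against 153.1 and 157.9 (-0.55 ± 0.16, adjusted p by limma = 0.0652). For both the cAMP arrays lay below the controls without passing, and Txnrd3 passed without control replicate 2. The cytosolic Txnrd1 overlapped between groups, at 479.6 and 315.5 against 391.5 and 337.8 (-0.09 ± 0.21, 95% interval -0.59 to 0.40).

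The membrane-bound transferases moved apart. Mgst3, a microsomal transferase with peroxidase activity (1388300_at, promoter above), fell from 477 and 568.1 to 97.3 and 124.4. No other member fell as far, with a difference of -2.09 ± 0.18 (adjusted p by limma = 0.000526), about 4.25-fold on this scale. Mgst2, which can also make leukotriene C4 (1372599_at), rose from 620.5 and 552.3 to 1477.9 and 1341.5. Its groups did not overlap either (1.24 ± 0.13, adjusted p by limma = 0.00130). Mgst1, the form of the endoplasmic reticulum and outer mitochondrial membrane, overlapped between groups, at 4601.1 and 5695.9 against 4666.4 and 4889.7. Its difference of -0.10 ± 0.13 has a 95% interval of -0.40 to 0.20. Quantile normalization turned its sign (0.10).

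Among the soluble transferases, Gstt3 was the single gene of 15 tested that passed, beside 15.4% of all genes tested. Gstt3, a theta form (1371942_at, promoter above), fell from 754.7 and 594.8 to 261.9 and 218.3, a difference of -1.43 ± 0.17 (adjusted p by limma = 0.00230). Its neighbour on chromosome 20, Gstt1, gave 488.8 and 393.5 against 302 and 317.4, lower on both cAMP arrays, and did not pass (-0.48 ± 0.16, adjusted p by limma = 0.0956). Without control replicate 2 it did (0.0217). Gstt2, 2 protein-coding genes away from Gstt1, overlapped, at 204.6 and 224.4 against 172.5 and 211.9 (-0.15 ± 0.17).

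In the alpha and mu classes no gene was called. By limma 0 of their 7 tested members passed, with 4 at an unadjusted p below 0.05. Of all 10035 genes tested 3013 had an unadjusted p that low. Gsta1 gave 5547.7 and 5996 against 5288.8 and 5096.3 (-0.15 ± 0.10), a difference whose sign turned with quantile normalization (0.057). Gsta4, which clears aldehydes left by lipid peroxidation, gave 2699.6 and 2943.4 against 2274.8 and 1936.7 (-0.42 ± 0.13, adjusted p by limma = 0.0710). Gsta4 passed with quantile normalization (0.0257) and without control replicate 1 (0.0212). The mu genes lie close together on chromosome 2 and did not share a direction. Gstm1 gave 5499.5 and 5688.5 against 4484.7 and 4067 (-0.39 ± 0.11, adjusted p by limma = 0.0529), and Gstm2 4787.5 and 4825.1 against 3954.5 and 4013.6 (-0.27 ± 0.10). With quantile normalization these differences shrank to -0.20 and -0.13. Gstm1 passed with a stricter filter on dim probe sets (adjusted p by limma = 0.0420) and without either control array (0.0154 and 0.0405), and Gstm2 without control replicate 1 (0.0448). Above the control arrays lay Gstm4, at 102.8 and 96.9 against 152.9 and 155.6 (0.56 ± 0.17, adjusted p by limma = 0.0711). Gstm5 (0.28 ± 0.12) and Gstm7 (0.24 ± 0.11) had smaller positive differences, and Gstm7 passed with quantile normalization (0.41, adjusted p by limma = 0.0183). For all 5 mu genes the groups did not overlap, as for 61.3% of all genes tested. Members of a class are close in sequence, and whether their probes share targets was not tested.

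The other soluble classes did not pass either. Gstp1, the pi form, gave overlapping groups, at 4969.9 and 4671.5 against 4776.2 and 5040.5 (0.03 ± 0.10, 95% interval -0.22 to 0.27). Gstk1, the kappa form of mitochondria and peroxisomes, gave 247.4 and 225 against 465.5 and 262.3, so that its difference of 0.54 ± 0.25 came mostly from cAMP replicate 1. Gsto1, which reduces mixed disulfides of glutathione, gave 955.6 and 1096.9 against 1104.3 and 736 (-0.18 ± 0.20). Gsto2 (0.41 ± 0.23) and Gstz1, an enzyme of tyrosine breakdown (0.12 ± 0.18), were dimmer and did not pass.

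With all 4 arrays, 0 of 4 genes of glutathione synthesis and reduction passed by limma. Of the 4, 0 had an unadjusted p below 0.05, beside 3013 of all 10035 genes tested. Gclc, the catalytic subunit of the rate-limiting ligase, gave 482 and 441.5 against 435.5 and 373.5 (-0.19 ± 0.15, 95% interval -0.54 to 0.16). Its modifier subunit Gclm gave 313.9 and 186.7 against 196.7 and 169.9 (-0.38 ± 0.24), and it was lower without control replicate 2 (-0.73, adjusted p by limma = 0.0251) but not without control replicate 1 (-0.028). Glutathione synthetase, Gss, gave 139.4 and 128.9 against 134.1 and 152 (0.08 ± 0.17). Glutathione reductase, Gsr, was dim, at 69 and 42.9 against 40.6 and 26.7 (-0.53 ± 0.26, adjusted p by limma = 0.238). For Gclm control replicate 2 lay between the cAMP arrays, and for Gsr just above them.

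The NRF2 regulators and Nqo1 did not pass with all 4 arrays. Nfe2l2 gave 883.8 and 643.5 against 802.6 and 850.6 (0.13 ± 0.17, 95% interval -0.27 to 0.53). Keap1 gave 208.2 and 140.4 against 128.4 and 126.4 (-0.39 ± 0.21, adjusted p by limma = 0.284), and it was lower without control replicate 2 (0.0443). A dimmer Keap1 probe set had a difference of the opposite sign (0.38 ± 0.33), and the mean of both was -0.0013. Nqo1, a quinone reductase widely used as a readout of NRF2, gave 779.7 and 403 on the control arrays, and its cAMP values of 578.9 and 527.6 lay between them. The difference was -0.02 ± 0.28, with a 95% interval of -0.67 to 0.63. The outcome for Nqo1 turned on which control array was kept. Without control replicate 1 it was higher with cAMP (0.44, adjusted p by limma = 0.0477) and without control replicate 2 it was lower (-0.48, adjusted p by limma = 0.0450).

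**Figure D3:**
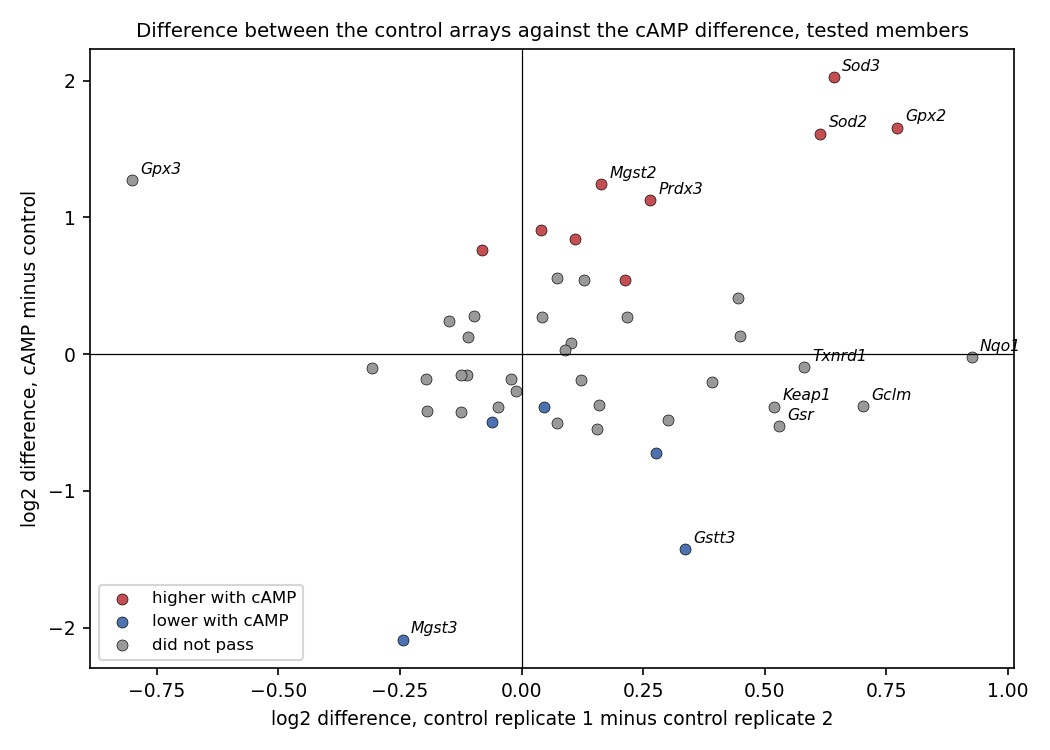
Log2 difference between control replicates 1 and 2 (x axis) against log2 difference between cAMP and control (y axis) for the 46 tested members; both axes hold the control arrays, so no relation is read from them. Nqo1, at 0.93 on the x axis and -0.02 on the y axis, differed between the control arrays and hardly between the group means, and Mgst3, at -0.24 and -2.09, did the opposite.

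The 6 members below the filter were Gsta3, Gsta3l1, Gpx6, Gstm3, Gstm6l and Gstp3. All but Gstm3 lay at or under the background signal on every array, and Gstm3 exceeded it on cAMP replicate 2 alone, at 18.2. Of the 6 members with further probe sets, Gclc, Gpx4, Gstt2, Keap1, Srxn1 and Txnrd1, none had another probe set past the threshold. For Txnrd1 a dimmer probe set read 164.5 and 47.4 on the control arrays against 123.2 and 151.5, again with the spread among the controls.

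Genes around these enzymes were described through 6 lists of 118 genes outside the set, of which 97 were tested. By limma 15 rose, 8 fell and 74 did not pass, 23.7% called against 15.4% of all genes tested. The 15 include Cth, which entered the test only through its cAMP arrays. The median log2 difference of the 97 was -0.04. Txndc5, Idh2, Akr1b8, Akr7a3, Xdh and Maoa passed whichever array was left out. Leaving out cAMP replicate 1 gave 4 higher and 3 lower genes, and leaving out cAMP replicate 2 gave 6 and 3. The counts were 18 and 11 when control replicate 1 was left out and 16 and 14 for control replicate 2, beside the shares of all probe sets given above (3.81%, 4.11%, 26% and 14% in the same order).

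In glutathione supply and turnover 3 of 13 tested genes rose and 0 fell by limma, beside 8.27% and 7.14% of all genes tested. The 3 include Cth, which entered the test only through its cAMP arrays. At an unadjusted p below 0.05, 3 had a negative difference, as had 1522 of all 10035 genes tested. Slc7a11, the transporter that brings in cystine for glutathione synthesis, went from 60.3 and 20.9 to 268.8 and 205 (2.24 ± 0.34). Its partner chain Slc3a2 did not pass, at 589.7 and 294.4 against 892.9 and 836.5 (1.02 ± 0.28, adjusted p by limma = 0.0565), but it did without either control array and with the replicate number as a block. Chac1, which degrades glutathione, rose from 96.6 and 57.5 to 280.6 and 171.4 (1.37 ± 0.29). Cth, which makes cysteine, rose from 13.5 and 14.6 to 32.9 and 44.5 (0.86 ± 0.22). Control replicate 1 of Cth lay under the background of 14.2. Only its cAMP arrays carried Cth past the filter on dim probe sets, so no support is drawn from its p-values. Slc7a11 and Chac1 were lost without cAMP replicate 1, and Cth was lost whichever array was left out.

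Among glutaredoxins and thiol repair enzymes 2 of 22 rose and 3 fell, or 9.09% and 13.6%, beside 8.27% and 7.14% of all genes tested. The mitochondrial glutaredoxins Glrx5, from 987.5 and 1039.9 to 667.5 and 625.9 (-0.64 ± 0.13), and Glrx2 (-0.53 ± 0.14) fell, as did Txnip, which binds and inhibits thioredoxin (-0.82 ± 0.21). Txndc5, a disulfide isomerase of the endoplasmic reticulum, rose from 593.8 and 389 to 1604.3 and 2037.2 (1.88 ± 0.22), and Sesn2 rose by 1.09 ± 0.19. Glrx2, Glrx5 and Sesn2 were lost without either cAMP array, and Txnip without cAMP replicate 1 or control replicate 2.

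Of 12 tested genes of NADPH supply, which feeds both the glutathione and the thioredoxin reductases, 2 rose and 2 fell. That was 16.7% each way, beside 8.27% and 7.14% of all genes tested. Idh2, the mitochondrial NADP-dependent isocitrate dehydrogenase, fell from 414.2 and 399 to 66.7 and 85.4. That difference, -2.21 ± 0.17 (adjusted p by limma = 0.000380), passed whichever array was left out. Me2 (0.77 ± 0.14) and Aldh1l1 (0.92 ± 0.19) rose and Mthfd1 fell (-0.70 ± 0.15), all lost without either cAMP array. The pentose phosphate gene Pgd did not pass (-0.28 ± 0.24), nor did Taldo1 (-0.79 ± 0.26). Both were lower without control replicate 2, and Taldo1 also with the replicate number as a block.

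Other genes known as NRF2 targets or partners rose in 4 of 22 and fell in 2. The shares were 18.2% and 9.09%, beside 8.27% and 7.14% of all genes tested. The aldo-keto reductase gene Akr7a3, which detoxifies aldehydes, went from 98.8 and 74.3 to 1620.1 and 1411.5, the largest difference on the lists (3.91 ± 0.17). Akr1b8, another aldo-keto reductase, rose from 915.5 and 618.2 to 3329.3 and 2593.8 (1.94 ± 0.21), and Akr7a2 (0.93 ± 0.15) and the carbonyl reductase gene Cbr1 (0.74 ± 0.12) rose as well. Osgin1 fell from 265.4 and 174.7 to 77.2 and 55.1 (-1.51 ± 0.24), and Aox1 fell by 0.79 on the log2 scale. Akr7a2, Cbr1 and Aox1 were lost without either cAMP array, and Osgin1 without cAMP replicate 2. Haem oxygenase, Hmox1, gave 1323.1 and 648.5 against 733.3 and 554.2 and did not pass (-0.53 ± 0.31), and it was lower without control replicate 2.

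Of the list of other selenoproteins, genes that insert selenocysteine and the selenoprotein P receptor gene Lrp8, 0 of 17 passed by limma. An unadjusted p below 0.05 was reached by 2, beside 3013 of all 10035 genes tested. The widest differences were 0.50 ± 0.23 for Sephs1 and -0.74 ± 0.20 for Selenom. Selenom read 40 and 36.1 on the control arrays against 15.4 and 17.5 with cAMP. It entered the test only through its control arrays, so no support is drawn from its p-values. Sephs1 and Sephs2 passed without control replicate 1, and Selenom when no intensity trend was fitted.

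Among oxidant producers, metallothioneins and metal chaperones 4 of 11 rose and 1 fell. These are 36.4% and 9.09%, beside 8.27% and 7.14% of all genes tested. Xdh, which forms superoxide and hydrogen peroxide while it makes urate, went from 66.2 and 40.1 to 275.9 and 287.2 (2.13 ± 0.22). Maoa, a mitochondrial monoamine oxidase that releases hydrogen peroxide, fell from 1037.9 and 699.6 to 224.7 and 277.3 (-1.71 ± 0.21). The metallothioneins Mt2A (1.15 ± 0.18) and Mt3 (1.21 ± 0.29) rose, and Rac1 rose by 0.63 ± 0.12, all 3 lost without either cAMP array. Ccs, the chaperone that loads copper into SOD1, did not pass (0.32 ± 0.16).

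**Figure D4:**
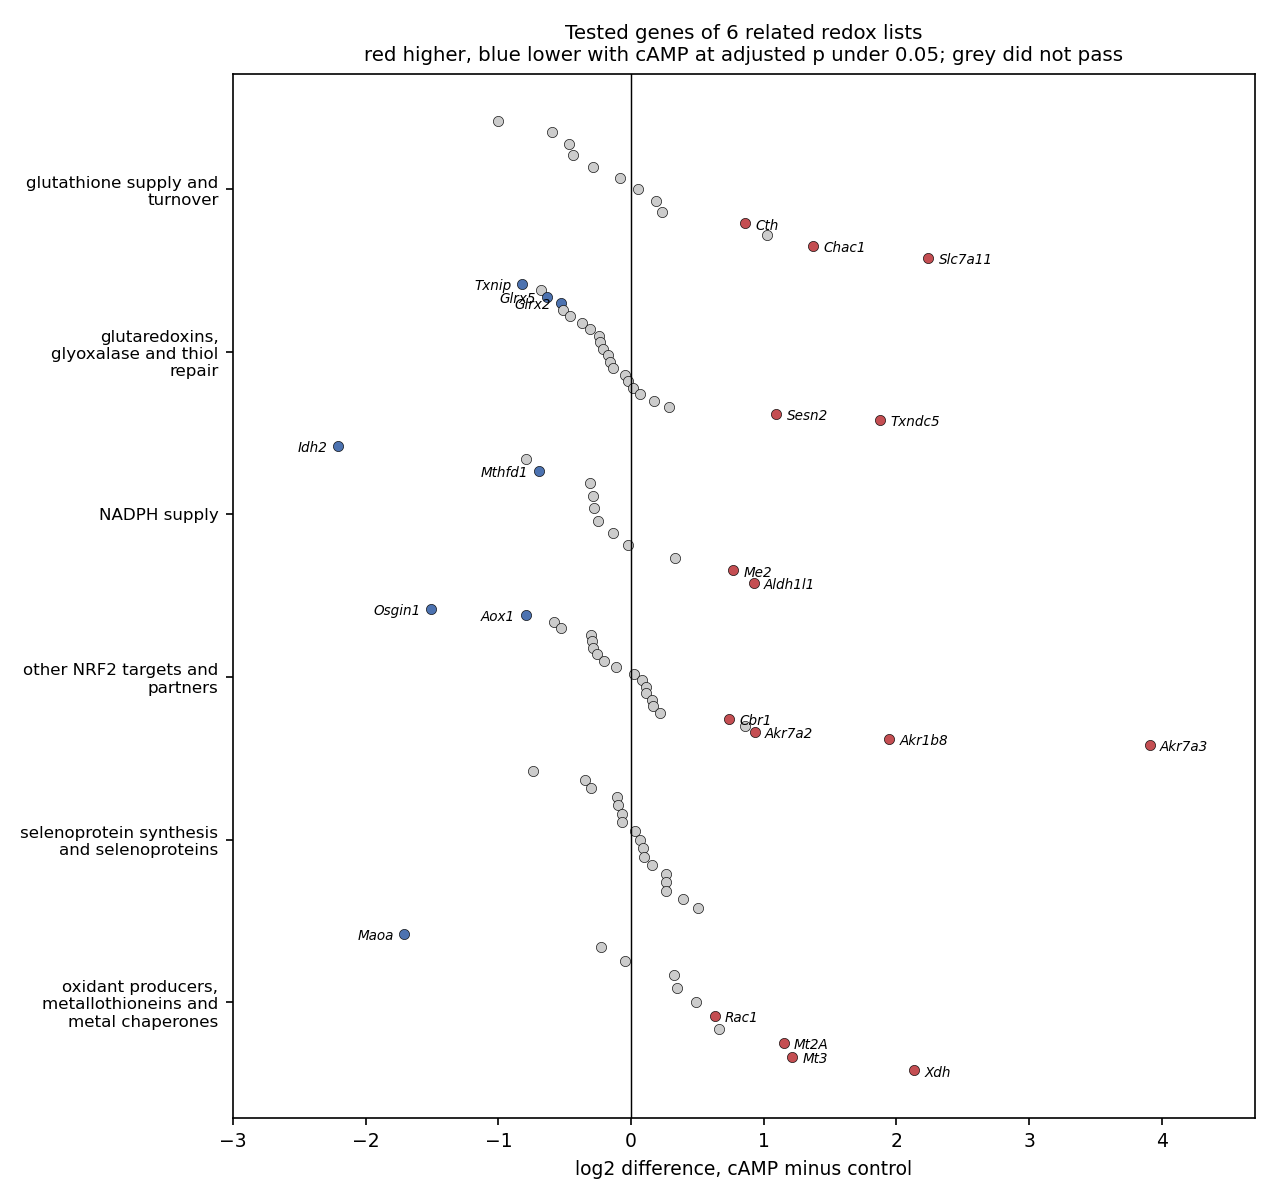
Log2 difference (cAMP minus control, x axis) of the 97 tested genes on 6 lists around the antioxidant enzymes, 1 row of points per list, each point a gene and its vertical place only its rank. Red and blue mark the 15 higher and 8 lower genes, which are named; Akr7a3 at 3.91 and Idh2 at -2.21 lie farthest out, and the selenoprotein row holds no coloured point.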

How the data were processed

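Expression was measured in 2 control and 2 cAMP cultures on 1 Affymetrix rat array each. The authors deposited 1 linear-scale intensity per probe set, and the submitters' processing notes name GCOS and MAS5 as the tools; their versions and settings and a genome build were not given. The 31099 probe sets include 57 controls; 20832 carry 1 gene symbol, 436 several and 9831 none. Symbols were brought up to date with a RefSeq gene table (GRCr8), which matched 20764 of the 20832 and changed 0 of the member symbols. A pair of probe sets with several symbols that include a member's was left out.

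log2(signal + 16) was fitted in R 4.3.3 with limma 3.58.1 (eBayes with an intensity trend after lmFit, two-sided; Benjamini-Hochberg over 18625 probe sets with a mean of at least 5.10, the 40th percentile). The log2 scale understates changes of dim genes. The value of Gpx3 against background is the geometric mean of its cAMP arrays over the background signal. An exact permutation test of 2 against 2 arrays cannot go below 0.333. The members, families, lists and markers were chosen with earlier results of these data known. The rule named members past the threshold, the brightest other member of each family, others with an absolute log2 difference of at least 1, members below the filter, and listed genes past the threshold (up to 6 per list). The remaining members were named for completeness, and some listed genes after their values were seen (Slc3a2, Pgd, Taldo1, Hmox1, Sephs1, Selenom and Ccs). Same-numbered replicates were checked for pairing by the correlation of their deviations from the group means, which was 0.16. Alternatives were other pseudocounts, filters, quantile normalization, no trend, a replicate block, each array left out, and all probe sets of a gene averaged. The fit was tested on simulated data. Promoters were searched with Python 3.11.15.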

Additional observations from a re-analysis of the deposited data

How the results depend on the processing

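Of 545 member values under 12 alternatives, 482 kept direction and side of the threshold, 29 lost and 20 gained it, and 14 turned sign; the cause was not tested. The signs that turned were those of Gsta1 (0.057) and Mgst1 (0.10) with quantile normalization and of Gstt2 (0.084), Srxn1 (0.041) and Txnrd1 (0.21) with all probe sets of a gene averaged. The other 9 turned with an array left out, with ranges of -0.48 to 0.44 for Nqo1, -0.38 to 0.20 for Txnrd1, -0.018 to 0.071 for Gstp1, -0.25 to 0.054 for Mgst1, -0.10 to 0.35 for Nfe2l2 and -0.47 to 0.11 for Gsto1. Of the 14 values turned, 1 was past the threshold, that of Nqo1 without control replicate 1. With single arrays left out, members called ranged from 3 to 11 higher and from 2 to 11 lower, related genes from 4 to 18 higher and 3 to 14 lower, and probe sets from 396 to 2467 higher and 314 to 2381 lower. With dim probe sets kept, 873 probe sets were higher and 725 lower, with 3 members and 5 related genes lower. Without a trend 2 members and 5 related genes were lower. With the replicate number as a block, a pairing that the labels do not state, 10 members were higher and 3 lower. Gpx8 and Txn1 were lost. Gpx3 was gained, but it entered the test only through its cAMP arrays, and its gain gives no support. Where an arm was left with 1 array, that array was assumed to vary like the others. Signal near background limits Gpx3, Gpx7 and Gsr. It also limits the dimmer probe set of Gpx4 and, outside the set, Cth, Selenom, Synpo2 and Tagln.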

Other observations

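Control replicate 1 was above control replicate 2 for 30 of the 46 tested members with a median log2 difference of 0.11, against 5629 of 10035 genes and a median of 0.05. On the list of other NRF2 targets and partners it was higher for 17 of 22 genes, with a median of 0.22. Among the members the differences were 0.93 for Nqo1, 0.77 for Gpx2, 0.70 for Gclm, 0.64 for Sod3, 0.61 for Sod2, 0.58 for Txnrd1, 0.53 for Gsr, 0.52 for Keap1 and 0.45 for Nfe2l2. Gclc differed by 0.12 on its brighter probe set and by 0.77 on its dimmer one. Gsta1 (-0.11), Gstm1 (-0.05) and Mgst1 (-0.31) had the opposite order. The 3' to 5' actin ratio was 2.25 on control replicate 2 and 1.80 on control replicate 1. The GAPDH ratio had the opposite order, at 0.90 and 0.97. The part of RNA quality in these differences was not tested. The genes named were picked after their values were seen.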
